A study of Mus musculus with 10 samples.

Results

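The genes described here are 42 chromatin regulators: ATP-dependent remodellers, histone methyltransferases and demethylases, the acetyltransferases Ep300 and Crebbp, and enzymes that write or remove DNA methylation. They were taken by symbol from the gene table, where all 42 were found among 17363 named genes. All 42 were also among the 14473 genes tested, that is, genes with at least 10 normalised counts in at least 2 of the 8 replicates. The list was drawn up with values of these same libraries in view, including the genotype comparisons and the repeat libraries. Every count, fold change and p-value of the members is therefore a description, and none is independent support for a statement about the group.

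RNA was sequenced from CD4+CD25- T cells sorted from breast tumours of C57BL/6 mice aged 23 weeks. All mice carried the PyMT oncogene, which drives mammary tumours, and floxed Tgfbr2 alleles (Tgfbr2fl/fl), so the controls held these too. KO mice also carried ThPOKCre, a Cre recombinase driven by ThPOK in the CD4 lineage, which deletes floxed Tgfbr2, the gene for a subunit of the TGF-beta receptor. WT mice had no Cre. Il4-/-KO mice had ThPOKCre and were Il4-/-, that is, without the gene for interleukin 4, and Il4-/- mice were the same without Cre. Each of the 4 genotypes had 2 replicates. The RNA of each KO replicate was made into 2 libraries, a repeat and a first one, which gave 10 libraries in all. Whether each replicate came from its own mouse is not stated, and the p-values therefore rest on a spread between samples that may hold a technical share.

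Chromatin remodellers use ATP to slide, evict or exchange nucleosomes, and histone methyltransferases mark the tails of histones with methyl groups that other proteins read. H3K4 methylation is found at active promoters and enhancers, H3K36 methylation along transcribed genes, and H3K27 trimethylation at silenced genes. In CD4 T cells such enzymes, among them Ezh2 and Dnmt3a, are known to limit which helper programmes a cell can switch on. Most of these proteins are very large, and their transcripts are long. The members' transcripts had a median length of 8683 nt (2787 for Ezh2 to 19823 for Kmt2d), against 3016.5 nt over the genes tested that had an annotation. Of the 42 members, 41 were longer than that median and 32 were in the longest 10%, at 6520.5 nt or more. Their GC content, the share of G and C bases in the transcript, ran from 39.5% in Atrx to 59.6% in Kdm6b with a median of 50.3%, against a median of 50.2% over all annotated genes.

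The members' fold changes in the comparisons with KO were ordered by GC content, so stretches of coding sequence are shown for Srcap, Kmt2d, Atrx and Ash1l. Srcap and Kmt2d were higher in KO than in WT cells with the libraries of a KO RNA averaged. With the first KO libraries alone, their log2 fold changes were -0.005 and -0.11. Atrx and Ash1l were lower in KO. Each sequence shown is the 90-base in-frame stretch whose GC content was nearest to that of the gene's whole coding sequence in the GENCODE vM21 transcripts (GRCm38). Capitals mark G and C. Srcap, an ATPase that deposits the histone variant H2A.Z, lies at chr7:127511983-127561219 on the plus strand, and coding bases 19 to 108 are shown. Kmt2d, an enhancer H3K4 methyltransferase, lies at chr15:98831669-98871204 on the minus strand, and coding bases 4 to 93 are shown. Atrx, which with Daxx deposits histone H3.3, lies at chrX:105797615-105929403 on the minus strand, and coding bases 16 to 105 are shown. Ash1l, an H3K36 methyltransferase, lies at chr3:88950622-89079375 on the plus strand, and coding bases 7 to 96 are shown. The stretches held 49, 53, 37 and 41 G or C bases of 90.
Srcap: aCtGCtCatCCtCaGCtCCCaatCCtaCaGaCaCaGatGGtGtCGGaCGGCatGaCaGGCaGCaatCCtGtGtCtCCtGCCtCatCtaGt
Kmt2d: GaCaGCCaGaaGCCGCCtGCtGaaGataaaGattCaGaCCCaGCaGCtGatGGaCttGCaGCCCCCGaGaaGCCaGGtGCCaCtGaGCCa
Atrx: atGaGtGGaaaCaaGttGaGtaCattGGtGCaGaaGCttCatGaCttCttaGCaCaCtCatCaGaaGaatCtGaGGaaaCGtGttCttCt
Ash1l: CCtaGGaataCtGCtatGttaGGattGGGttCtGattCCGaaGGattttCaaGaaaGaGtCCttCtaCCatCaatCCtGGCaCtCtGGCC

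Values are normalised counts: read counts that the authors divided by a size factor per library. Recovered depth fell into 2 sets: 6 libraries, the KO repeats, Il4-/-KO and Il4-/-, held 28003231 to 33802781 reads, and 4 libraries, the first KO libraries and WT, held 17121030 to 18479090. The T cell markers Cd3d, Cd3e, Cd4 and 8 others were detected in every library, with a sum of 117961 to 256957 normalised counts, and Cd4 ran from 12165 in a WT replicate to 40172 in an Il4-/-KO replicate. Although the sort was for CD25- cells, Il2ra, the gene for CD25, had 400.4 to 4201 normalised counts in every replicate, and Foxp3, which defines regulatory T cells, had 182.2 to 5327, the highest in Il4-/-KO replicate 1. The 10 epithelial markers (Krt8, Krt18, Epcam and others) summed to 64044 to 134996 in the KO libraries, 169720 and 20762 in WT replicates 1 and 2, 13744 and 30712 in Il4-/-KO and 20262 and 47975 in Il4-/-, with at most 1 of the 10 at 0 in any library. Sums were 5051 to 73906 for 10 macrophage markers, the highest in Il4-/- replicate 2, 1189 to 15877 for 3 regulatory T cell markers, 115.3 to 1126 for Cd8a and Cd8b1, 109.4 to 6255 for 6 neutrophil markers, 1224 to 3265 for 7 stromal markers and 63.2 to 266.5 for 4 B cell markers, with up to 4 neutrophil, 5 stromal and 2 B cell markers at 0 in a library. Tgfbr2 had 5803 to 9442 normalised counts in KO and 7876 and 7894 in WT, and 7762 and 8205 in Il4-/-KO and 13816 and 12544 in Il4-/-. Il4 had 236.5 to 522.7 in the KO libraries and 106.7 and 275.9 in WT, 98.7 and 39.7 in Il4-/-KO and 97.2 and 75.4 in Il4-/-. A sum over all exons of a gene does not check a deletion of part of it.

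Per kilobase of transcript, mean levels over the 8 replicates ran from 16.2 normalised counts per kb for Setd1a to 839 for Smarcc2. Smarcc2, a scaffold of the SWI/SNF complex, was followed by Dnmt1, the maintenance DNA methyltransferase, at 701 and by Smarca4, the SWI/SNF ATPase also called BRG1, at 652. Pbrm1, a bromodomain subunit of the PBAF form of SWI/SNF, averaged 629 per kb and Smarca5, the ISWI ATPase, 615. The standard deviation over the replicates was 153 for Smarcc2, 144 for Dnmt1 and 357 for Smarca5 per kb, so the order of these neighbours is within their spread. At the low end stood Kmt2b at 53.1, Ino80 at 40.2 and Setd1b at 27.9 per kb. Setd1a and Srcap are uncertain as single genes. In GENCODE vM21, exons of Setd1a and Srcap share bases with exons of overlapping genes on the same strand (Gm49388 and Gm42715), which were not analysed here. The shared bases amounted to 54.3% of the length of the Setd1a transcript used and 91.4% of that of Srcap. Those shared by Kmt2e with Srpk2 on the other strand amounted to 13.3% of the Kmt2e transcript length. Shared bases were counted over all annotated transcripts of a gene, so these values can include bases outside the transcript used. How reads shared between genes were counted, and whether strand was used, is not given in the sources used here.

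**Figure D1:**
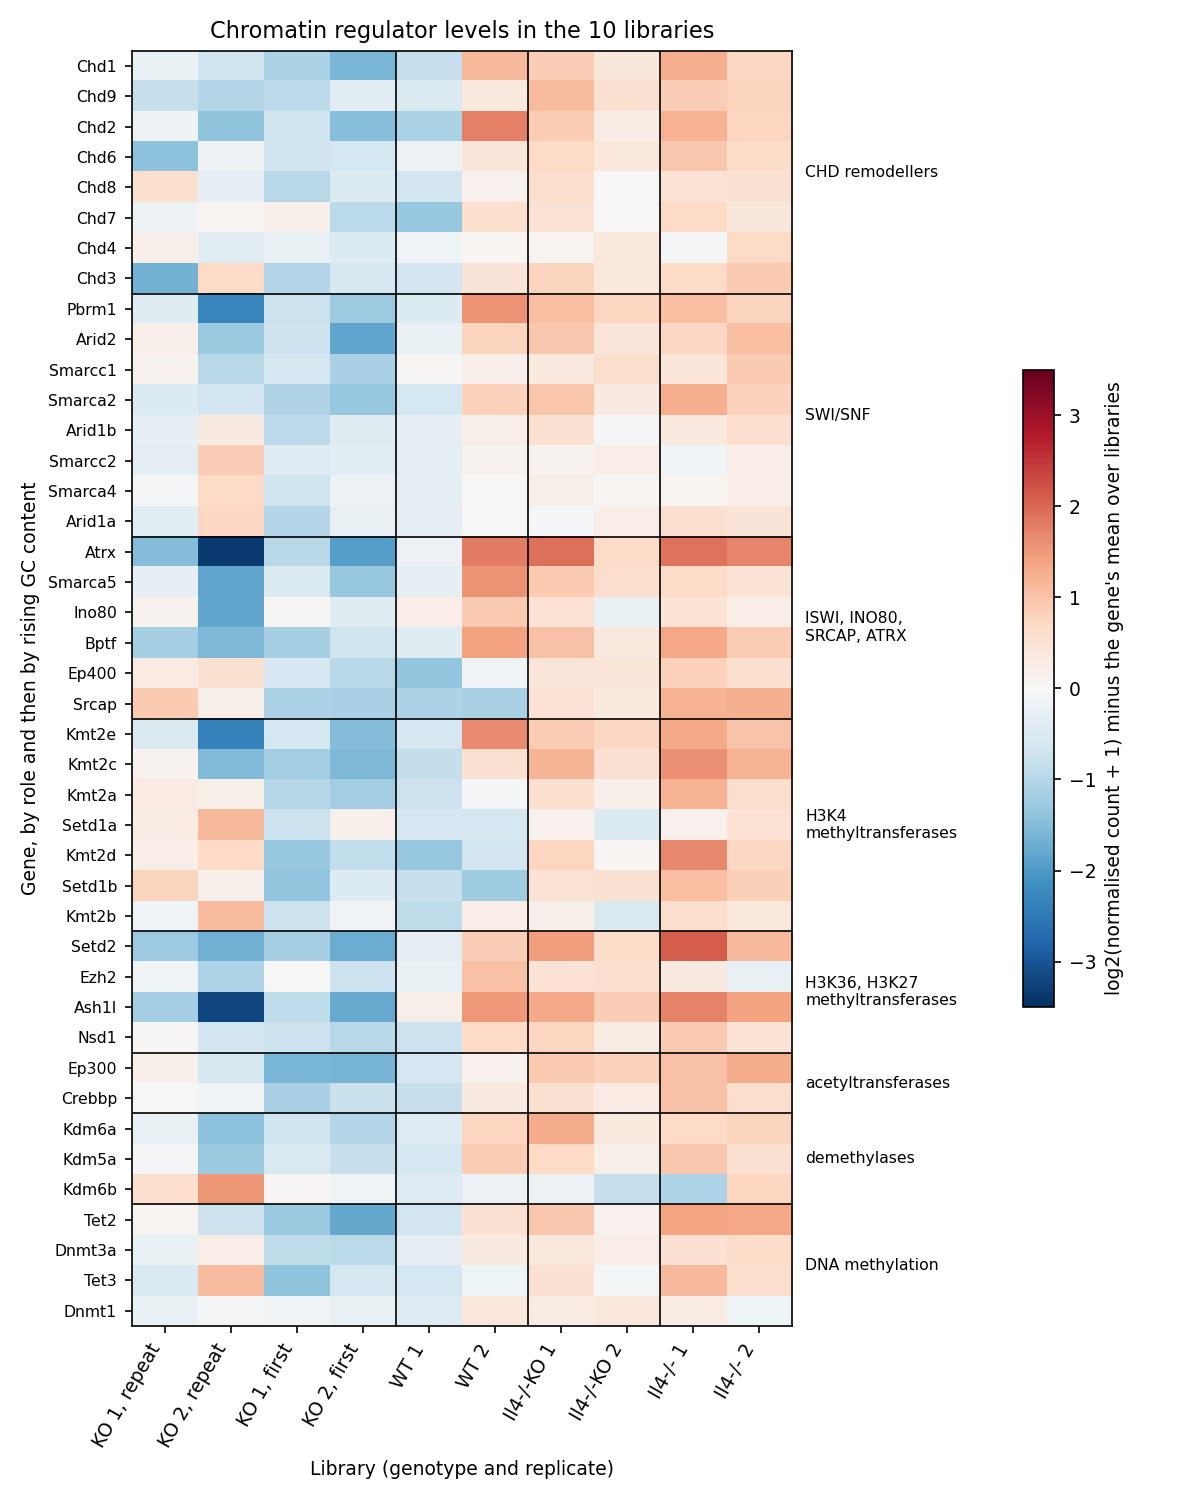
Each row is a member, grouped by role and ordered by rising GC content within a role, and each column is a library. Colour gives log2(normalised count + 1) minus the mean of that gene over the 10 libraries. The 4 KO libraries and WT 1 are mostly blue, and WT 2, Il4-/-KO and Il4-/- are mostly red, with Kdm6b as the plainest exception.

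Summed over the 42 members, the KO libraries held 40446 to 66669 normalised counts, WT replicates 50479 and 122157, Il4-/-KO replicates 121800 and 93939, and Il4-/- replicates 139013 and 119813. By this sum the members were low in KO and in WT replicate 1, and about as high in WT replicate 2 as in the Il4-deficient genotypes. By the members' median on the log2 scale, WT replicate 2 at 10.92 was below the Il4-/-KO and Il4-/- replicates, at 11.07 to 11.63. WT replicate 2 exceeded WT replicate 1 for 40 of the 42, with a median log2 difference of 1.07, while the median over all genes was -0.02. Chd2, a CHD-family remodeller, had 9483 normalised counts in WT replicate 2 and 1292 in WT replicate 1. Pbrm1 had 9753 in WT replicate 2 and 2321 in WT replicate 1. The epithelial sum was 64044 or more in every KO library and in WT replicate 1, where the members were low, and 47975 or less in the other 5 libraries, and its part in the members' levels was not tested. In bulk RNA, fewer cells that express a gene and less RNA per cell cannot be told apart.

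The members varied together over the 8 replicates. The median Pearson correlation over the 861 pairs of members was 0.66, and 91.5% of the pairs were above 0; the pairs share the same replicates and the same differences in composition. Kdm6b, a demethylase of H3K27, ran against the rest with a median correlation of -0.41 to the other members. Setd1a, with 0.07, and Smarcc2, with 0.23, were next. Il4-/- replicate 1 held the highest value for 17 members and KO replicate 2 the lowest for 20. These correlations and counts were not computed over all genes tested or over genes of like transcript length. Long transcripts also shifted together beyond the members. Of the 1422 genes tested in the longest class, 1078 were higher and 343 lower in Il4-/-KO than in KO. Whether the shared variation is particular to the members was therefore not tested.

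KO cells had lower values than WT cells for 29 of the 42 members and higher values for 13, where 52.9% of all 14473 genes were lower and 46.7% higher. The members' median log2 fold change was -0.52, against -0.07 over all genes. Fold changes are on the log2(normalised count + 1) scale and come from limma, fitted on all 8 replicates with the libraries of a KO RNA averaged. The replicates of KO and WT did not overlap for 12 members that were lower in KO (20.1% of all genes) and 6 that were higher (17.5% of all genes). No member passed an adjusted p of 0.05 in limma, and 1 gene of all did (0.00691%). At an unadjusted p under 0.05, 7 members were lower (6.9% of all genes) and 1 was higher (5.19%). The quasi-likelihood test of edgeR called 0 members, and the Wald test of DESeq2 called 3, Srcap as higher (1.68% of all genes) and Atrx and Ash1l as lower (1.96%).

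The largest differences toward lower values in KO were in Atrx, Ash1l and Kmt2e. Atrx had 610 and 172 normalised counts in the KO repeats and 891 and 457 in the first KO libraries, against 1511 and 6037 in WT. All 4 KO libraries were below both WT libraries, which themselves lay far apart, and the log2 fold change was -2.63 ± 0.72 (SE; limma adjusted p = 0.345). Ash1l had 531 and 128 in the KO repeats and 651 and 355 in the first KO libraries, against 1387 and 3452 in WT. Again no KO library reached a WT library, with a log2 fold change of -2.53 ± 0.55 (SE; limma adjusted p = 0.321). Kmt2e, a PHD- and SET-domain relative of the H3K4 methyltransferases, had 1851 and 509 in the KO repeats and 1689 and 911 in the first KO libraries, against 1743 and 8133 in WT. Here the groups overlapped, and the log2 fold change was -1.75 ± 0.70 (SE; limma adjusted p = 0.394).

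The largest differences toward higher values were in Srcap, Setd1b and Kdm6b. In Srcap and Setd1b both repeats lay well above WT, and the first libraries lay closer to it. Srcap had 2821 and 1694 normalised counts in the KO repeats and 690 and 671 in the first KO libraries, against 689 and 676 in WT. The first KO libraries thus matched WT closely, and the log2 fold change was 1.08 ± 0.30 (SE; limma adjusted p = 0.345) with both libraries but -0.005 with the first alone. Setd1b, an H3K4 methyltransferase, had 352 and 229 in the KO repeats and 77.9 and 144 in the first KO libraries, against 116 and 85.8 in WT. Its first KO libraries overlapped WT, and its log2 fold change was 0.998 ± 0.55 (SE; limma adjusted p = 0.502). Kdm6b had 916 and 1769 in the KO repeats and 631 and 548 in the first KO libraries, against 447 and 528 in WT. All 4 KO libraries were above both WT libraries, with a log2 fold change of 0.96 ± 0.63 (SE; limma adjusted p = 0.571).

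By role, the H3K36 and H3K27 methyltransferases were all lower in KO than in WT, from -2.53 to -0.54 in log2 fold change. These were Ash1l, Setd2, which places H3K36 trimethylation, Ezh2, the catalytic subunit of PRC2, and Nsd1, which places H3K36 dimethylation. Ezh2 and Nsd1 overlapped WT. The GC content of these genes was 44.3% to 46.5%, and of the 21 members under 50%, 20 were lower. With trends on length and GC content removed, Nsd1 stood at 0.35, and Ash1l, Setd2 and Ezh2 at -1.58, -0.73 and -0.36. Of the 6 remodellers of the ISWI, INO80 and related groups, 4 were lower and 2 were higher, from Atrx at -2.63 to Srcap at 1.08. Of the 8 SWI/SNF subunits 6 were lower, from Pbrm1 at -1.69 to Smarca4 at 0.15, and of the 8 CHD remodellers 6 were lower, from Chd2 at -1.27 to Chd7 at 0.22. Of the H3K4 methyltransferases and Kmt2e, 5 of 7 were higher in KO (median 0.42 on the log2 scale), from Kmt2e at -1.75 to Setd1b at 0.998, but with the first KO libraries alone 2 of 7 were higher and the median was -0.11 (with the repeats alone, 5 of 7 and 0.80). Ep300 at -0.50 and Crebbp at -0.19, the paired histone acetyltransferases, were both lower, as they were with the first KO libraries alone (median -1.06), while both were higher with the repeats alone (median 0.11). Among the demethylases Kdm6a, which acts on H3K27, was lowest at -0.99 and Kdm6b highest at 0.96. Among the DNA methylation enzymes Tet2, which oxidises methylcytosine, was lowest at -0.75 and Tet3 highest at 0.17.

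With the first KO libraries alone, which are as shallow as WT, 3 members were higher in KO and 39 lower (45.9% of all genes higher). With the repeats alone 17 were higher (40.5% of all genes). Without WT replicate 1 the median was -0.94 with 6 members higher, without WT replicate 2 it was -0.03 with 20 higher, and after a trend on transcript length was removed it was 0.06 with 22 higher.

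**Figure D2:**
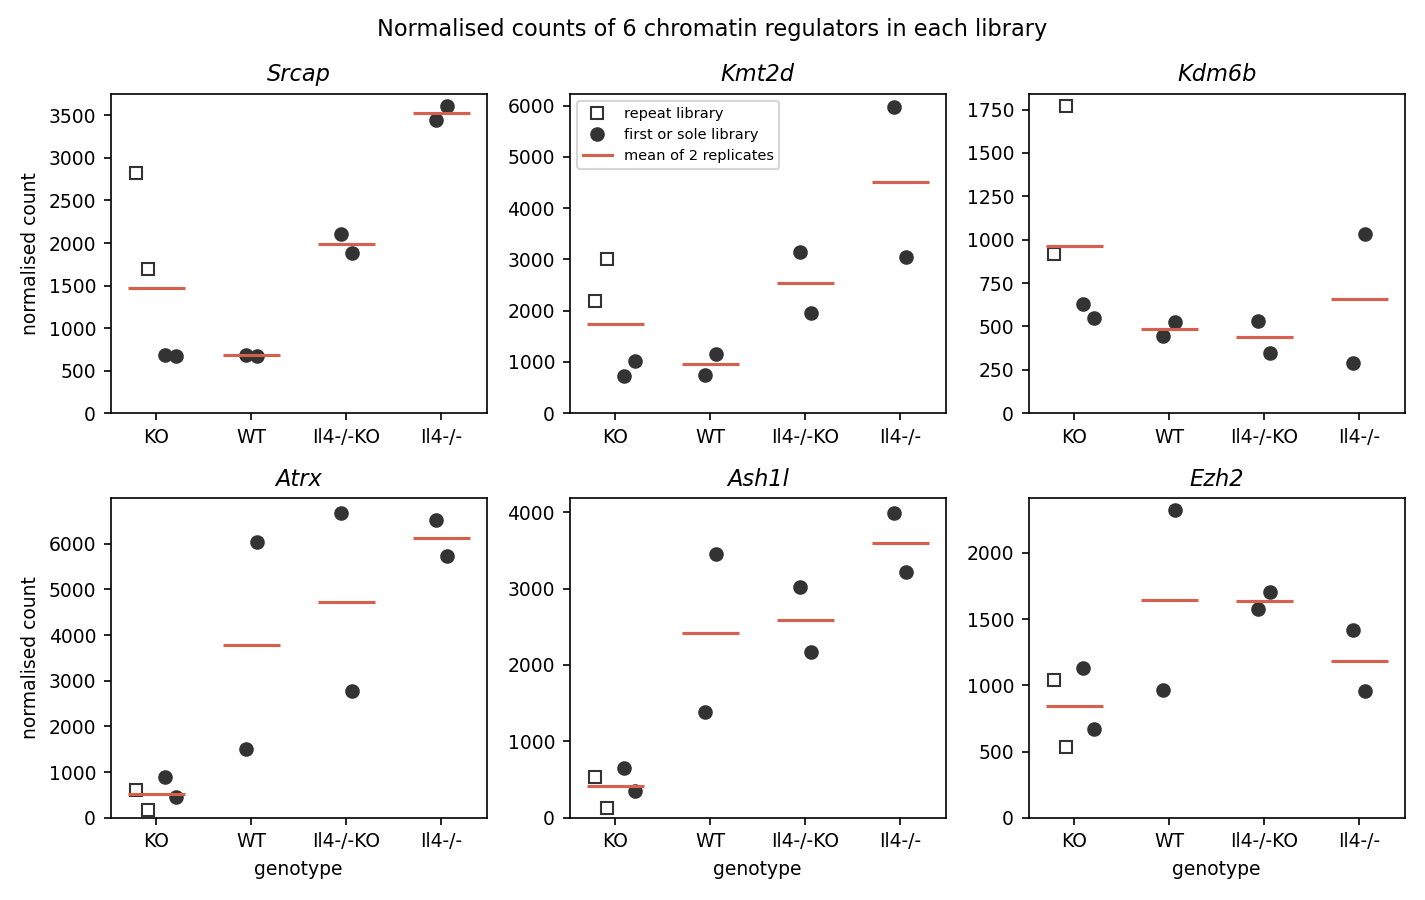
Normalised counts of 6 members in every library by genotype. Squares are KO repeat libraries, dots are first or sole libraries and lines are means of 2 replicates. For Srcap and Kmt2d the first KO libraries sit beside WT and the repeats above it, while Atrx and Ash1l are low in all 4 KO libraries.

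Since repeat and first library came from the same RNA, their difference is one between library preparations and depths and not between genotypes, and no test was run. Of the 42 members, 26 were higher in the repeat than in the first library in both RNAs and 4 were lower in both (23.3% and 29.7% of all genes), while 12 went opposite ways. The median of the members' mean log2 difference was 0.65. Srcap, Kmt2a, Kmt2d, Ep300 and Tet2 were at least 2-fold higher in the repeat of both RNAs (2.65% of all genes). No member was at least 2-fold lower in both (7.24% of all genes). The 4 members lower in both repeats were Atrx, Ash1l, Bptf, the largest subunit of the NURF remodeller, and Ezh2.

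Kmt2d had 2188 normalised counts in the repeat and 732 in the first library of RNA 1, and 3019 in the repeat and 1014 in the first library of RNA 2. The H3K4 methyltransferase Kmt2a had 2609 in the repeat and 1081 in the first library of RNA 1, and 2461 in the repeat and 926 in the first library of RNA 2. Both were more than 2-fold higher in each repeat. Ep300 had 1628 in the repeat and 473 in the first library of RNA 1, and 969 in the repeat and 458 in the first library of RNA 2. Dnmt1 was steady in comparison, with 3310 in the repeat and 3633 in the first library of RNA 1, and 3812 in the repeat and 3283 in the first library of RNA 2. Chd3, an ATPase of the NuRD complex, differed in direction between the RNAs, with 425 in the repeat and 662 in the first library of RNA 1, and 2177 in the repeat and 918 in the first library of RNA 2.

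**Figure D3:**
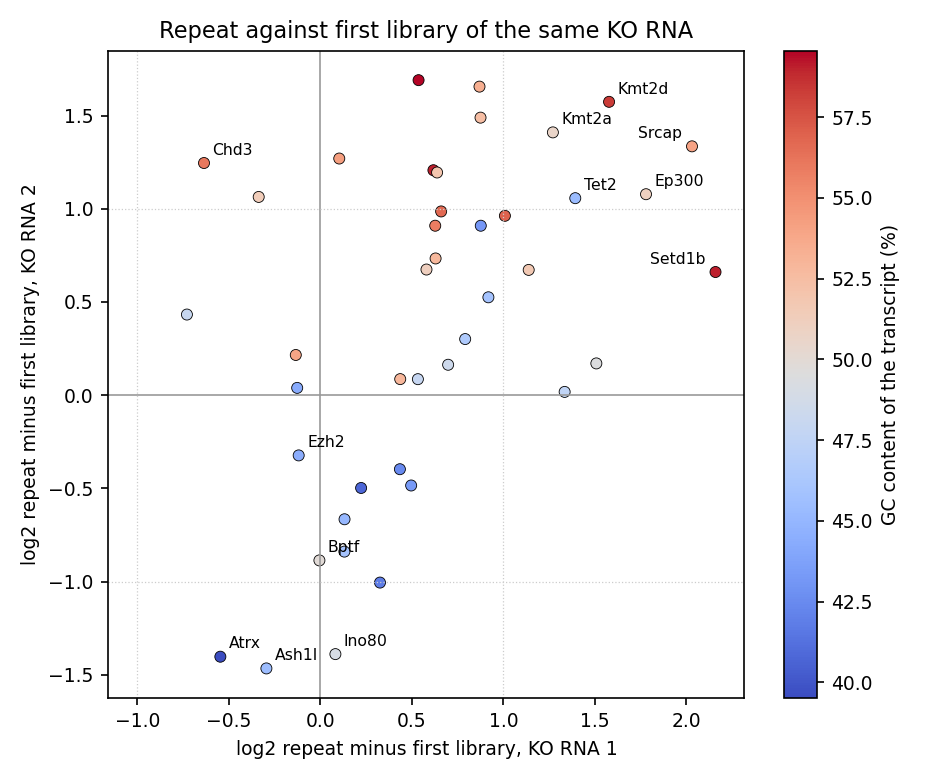
Each point is a member. The x axis gives its log2 difference, repeat minus first library, in KO RNA 1 and the y axis the same in KO RNA 2; colour is GC content, and dotted lines mark a 2-fold difference. Most points are at the upper right, Srcap and Kmt2d far out, and Atrx and Ash1l are at the lower left.

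Between Il4-/-KO and Il4-/- cells, which share the deeper set of libraries, 37 of the 42 members were lower and 5 higher (52.2% and 47.6% of all genes), with small sizes. The median log2 fold change was -0.30, against -0.03 over all genes, and single members ran from -0.83 to 0.50. Il4-/-KO and Il4-/- replicates did not overlap for 14 members that were lower (16.2% of all genes) and 2 that were higher (16.8%). The adjusted p in limma was 1 for every member, and limma, edgeR and DESeq2 called 0 members (DESeq2 called 0.0898% of all genes as higher and 0.263% as lower). At an unadjusted p under 0.05, limma had 1 member lower (1.96% of all genes) and 0 higher (1.3%). Of all genes, limma called 0, edgeR 0 and DESeq2 51.

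Srcap had 2103 and 1882 normalised counts in Il4-/-KO, against 3451 and 3610 in Il4-/-. The groups stood apart, with a log2 fold change of -0.83 ± 0.30 (SE; limma adjusted p = 1). Tet2 had 2011 and 1173 in Il4-/-KO, against 2765 and 2678 in Il4-/-, with a log2 fold change of -0.82 ± 0.48 (SE). Kmt2d had 3139 and 1960 in Il4-/-KO, against 5976 and 3046 in Il4-/-, and the groups overlapped. The 3 most positive members were Ezh2, Dnmt1 and Smarca5. Ezh2 had 1578 and 1702 in Il4-/-KO, against 1415 and 955 in Il4-/-, a log2 fold change of 0.50 ± 0.50 (SE). Dnmt1 had 4695 and 5047 in Il4-/-KO, against 4681 and 3527 in Il4-/-, a log2 fold change of 0.26 ± 0.34 (SE). Without Il4-/- replicate 2 these were 0.21 for Ezh2 and 0.056 for Dnmt1. Smarca5 had 5044 and 4099 in Il4-/-KO, against 4263 and 3686 in Il4-/-, and the groups overlapped.

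All 8 CHD remodellers and all 7 H3K4 methyltransferases and relatives were lower in Il4-/-KO than in Il4-/-. The CHD members ran from Chd2 at -0.39 to Chd9 at -0.01, and the H3K4 group from Kmt2d at -0.78 to Kmt2e at -0.35. Of the SWI/SNF subunits 7 of 8 were lower, from Arid1a, a DNA-binding subunit, at -0.42 to Smarcc2 at 0.12. Setd2 was lowest of the H3K36 and H3K27 methyltransferases at -0.56. Crebbp at -0.40 and Ep300 at -0.31 were lower, and Kdm6b at -0.34 and Kdm6a at 0.07 bounded the demethylases. The direction went with transcript length in this comparison: 32 of the 32 members in the longest 10% were lower, as were 1004 of 1422 genes of that length class overall. Once the length trend was removed, the median was 0.12 and 27 members were higher.

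In Il4-/-KO cells 39 of the 42 members were higher than in KO cells and 3 were lower (47.1% and 52.8% of all genes). The median log2 fold change was 1.04, against -0.07 over all genes. Both comparisons with KO use the same KO libraries, so low KO values enter each. The replicates did not overlap for 32 members that were higher (22.8% of all genes) and 1 that was lower (23.3%). No member and no gene passed an adjusted p of 0.05 in limma or edgeR; at an unadjusted p under 0.05, limma had 17 members higher (8.53% of all genes) and 0 lower (3.13%). DESeq2 called Chd9, Atrx, Setd2 and Ash1l as higher (1.97% of all genes) and no member as lower (0.746%).

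Atrx had 6672 and 2771 normalised counts in Il4-/-KO, against 610 and 172 in the KO repeats and 891 and 457 in the first KO libraries. Every Il4-/-KO value was above every KO value, and the log2 fold change was 3.14 ± 0.72 (SE; limma adjusted p = 0.321). Ash1l had 3016 and 2169 in Il4-/-KO, with a log2 fold change of 2.76 ± 0.55 against KO (SE; limma adjusted p = 0.321). Setd2 had 2386 and 1340 in Il4-/-KO, against 354 and 266 in the KO repeats and 387 and 259 in the first KO libraries. Its 4 KO libraries lay within a narrow band, and the log2 fold change was 2.52 ± 0.55 (SE; limma adjusted p = 0.321). Chd9 had 1641 and 1119 in Il4-/-KO, against 442 and 375 in the KO repeats and 403 and 595 in the first KO libraries.

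The 3 members that were lower in Il4-/-KO than in KO were Kdm6b, Setd1a and Kmt2b. Kdm6b had 530 and 349 in Il4-/-KO, below all 4 KO libraries, with a log2 fold change of -1.14 ± 0.63 (SE; limma adjusted p = 0.540). Setd1a had 113 and 72.2 in Il4-/-KO, against 122 and 226 in the KO repeats and 60.3 and 116 in the first KO libraries. Kmt2b, an H3K4 methyltransferase, had 474 and 292 in Il4-/-KO, against 380 and 886 in the KO repeats and 247 and 383 in the first KO libraries. Both overlapped, and both turned to slightly higher with the first KO libraries alone, at 0.11 for Setd1a and 0.27 for Kmt2b.

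The 8 CHD remodellers were all higher in Il4-/-KO than in KO, from Chd7 at 0.42 to Chd9 at 1.58, as were the 8 SWI/SNF subunits, from Smarca4 at 0.15 to Pbrm1 at 2.04. The 6 remodellers of the ISWI, INO80 and related groups ran from Srcap at 0.47 to Atrx at 3.14. The H3K4 group had 5 of 7 higher, up to Kmt2e at 2.02, and the H3K36 and H3K27 group 4 of 4, from Ezh2 at 1.01 to Ash1l at 2.76. Ep300 stood at 1.58 and Crebbp at 0.85, Kdm6a at 1.65, Tet2 at 1.35 and Tet3 at 0.46. With the first KO libraries alone the median was 1.37 with 41 members higher (48.7% of all genes). With the repeats alone, which match Il4-/-KO in depth, 33 were higher and 9 lower (54.8% of all genes higher). Srcap then stood at -0.14. With these repeats, 21 of 21 members with a GC content under 50% were higher (median 1.38). Of the 21 at 50% or more, 12 were higher (median 0.04). After the length trend was removed the median was 0.14 and 24 members were higher.

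**Figure D4:**
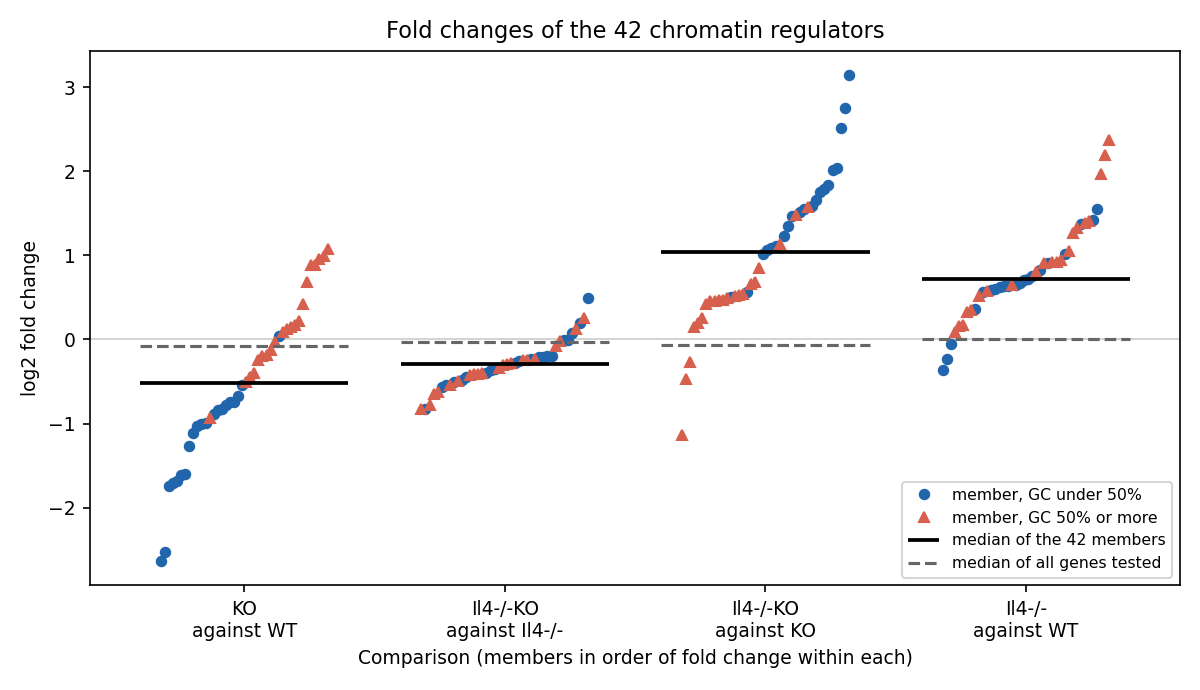
Log2 fold changes of the 42 members in 4 comparisons, in rising order within each. Circles are members with a GC content under 50% and triangles those at 50% or more; solid lines are the members' medians and dashed lines the medians of all genes tested. In KO against WT and in Il4-/-KO against KO the circles and triangles take opposite ends of the range.

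Il4-/- cells had higher values than WT cells for 39 members and lower values for 3 (50.3% and 49.5% of all genes). The median log2 fold change was 0.72, against 0.01 over all genes. The replicates did not overlap for 22 members that were higher (14.7% of all genes) and for 0 that were lower (14.6%). Limma and edgeR called 0 members and 0 genes; at an unadjusted p under 0.05, limma had 11 members higher (2.63% of all genes) and 0 lower (1.46%). DESeq2 called Srcap and Kmt2d as higher (0.159% of all genes) and no member as lower (0.0553%). Both Il4-/- libraries belong to the deeper set and both WT libraries to the shallower one, so in these 4 libraries genotype and depth cannot be told apart; the WT libraries are also those of KO against WT.

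Srcap had 3451 and 3610 normalised counts in Il4-/-, against 689 and 676 in WT. Replicates of each genotype were close, and the log2 fold change was 2.37 ± 0.30 (SE; limma adjusted p = 0.358). Kmt2d had 5976 and 3046 in Il4-/-, against 744 and 1159 in WT, with a log2 fold change of 2.20 ± 0.44 (SE; limma adjusted p = 1). Setd1b had 426 and 362 in Il4-/-, against 116 and 85.8 in WT, with a log2 fold change of 1.97 ± 0.55 (SE; limma adjusted p = 1). In each of these the repeat KO library also exceeded the first one in both RNAs. The 3 members that were lower, Ezh2 at -0.36, Ino80 at -0.23 and Smarca5 at -0.06, overlapped WT. Ezh2 had 1415 and 955 in Il4-/-, against 962 and 2324 in WT.

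All 8 CHD remodellers, 8 SWI/SNF subunits, 7 members of the H3K4 group, 3 demethylases, 4 DNA methylation enzymes and both acetyltransferases were higher in Il4-/- than in WT. The lowest and highest were Chd4 at 0.35 and Chd7 at 0.92, Smarcc2 at 0.16 and Smarca2, the SWI/SNF ATPase also called BRM, at 0.95, and Kmt2e at 0.62 and Kmt2d at 2.20. Dnmt1 stood at 0.09, Tet2 at 1.42, Crebbp at 1.05, Ep300 at 1.38, Kdm6b at 0.17 and Kdm6a at 0.59. With a term for the depth set, which the KO repeats allow, 27 members were higher with a median of 0.19 (56% of all genes higher). Without WT replicate 1 the median was 0.25 and without WT replicate 2 it was 1.38.

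The difference between the effect of Tgfbr2 deletion in Il4-deficient cells and that in Il4-sufficient cells was above 0 for 27 members and below 0 for 15 (50.2% and 49.8% of all genes), with a median of 0.25 on the log2 scale. Limma and edgeR called 0 members and 0 genes; at an unadjusted p under 0.05, limma had 1 member above 0 (1.68% of all genes) and 2 below (1.84%). DESeq2 called Srcap as below 0 (0.207% of all genes) and no member as above 0 (0.0345%). The most positive were Atrx at 2.13 ± 1.02, Ash1l at 2.05 ± 0.78 and Smarca5 at 1.81 ± 0.87 (SE; limma adjusted p = 0.988 each). Srcap at -1.90 ± 0.43, Kmt2d at -1.67 ± 0.62 and Setd1b at -1.42 ± 0.78 were the most negative (SE; limma adjusted p = 0.988 each). With the first KO libraries alone these were -0.82 for Srcap, -0.67 for Kmt2d and -0.51 for Setd1b, and with the repeats alone -2.50, -2.25 and -1.92. The median was 0.54 with 33 members above 0 (51.5% of all genes) with the first KO libraries alone. It was 0.059 with 22 above 0 (55.9% of all genes) with the repeats alone, and -0.26 without WT replicate 2.

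The fold changes of the members were ordered by GC content. In KO against WT, Spearman's correlation of fold change with GC content over the 42 members was 0.84, where it was 0.44 over 14216 annotated genes. In Il4-/-KO against KO it was -0.81 over the members and -0.48 over all annotated genes. It was -0.22 in Il4-/-KO against Il4-/- and 0.13 in Il4-/- against WT. Genes are not independent replicates, these values share libraries, and no test was run. Length, in contrast, ordered the members little in KO against WT (0.09), and more in Il4-/- against WT (0.58) and Il4-/-KO against Il4-/- (-0.51). Over all annotated genes the correlation with length was -0.22 in KO against WT. It was 0.26 in Il4-/- against WT and -0.17 in Il4-/-KO against Il4-/- over these genes. As 41 of the 42 members were longer than the median tested gene, the members' values compare long transcripts with each other.

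**Figure D5:**
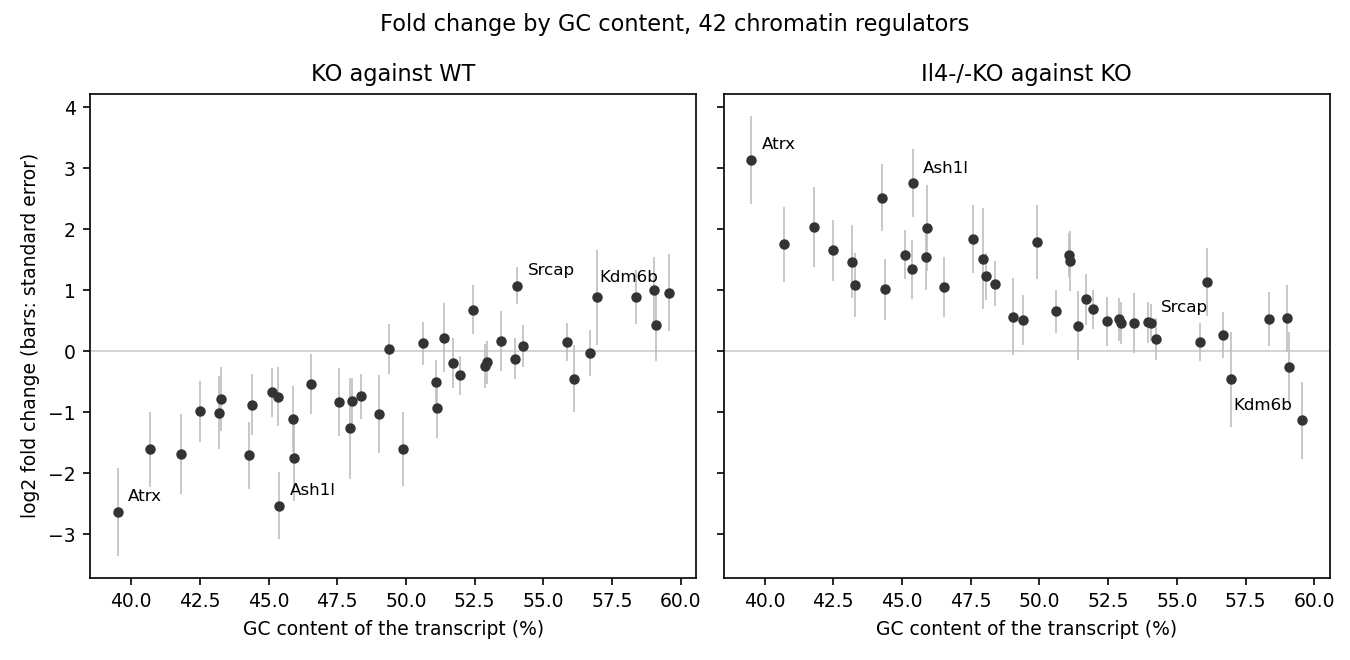
Log2 fold change of each member against the GC content of its transcript, with standard errors as bars. In KO against WT the points climb from Atrx at the lower left to Srcap and Kdm6b, and in Il4-/-KO against KO they descend from Atrx at the upper left to Kdm6b.

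Of the 21 members with a GC content under 50%, 20 were lower in KO than in WT, with a median log2 fold change of -1.01, against -0.52 over 6908 genes of that class. Of the 21 members at 50% or more, 12 were higher, with a median of 0.13, against 0.30 over 7308 genes of that class. The direction of this class turned with the KO library: 3 of 21 were higher with the first KO libraries alone (median -0.32) and 16 of 21 with the repeats alone (median 0.36). The correlation of fold change with GC content over the members was 0.81 with the first KO libraries alone and 0.82 with the repeats alone. It also appeared between samples of the same genotype, at -0.70 for WT replicate 2 minus replicate 1 and at 0.75 for KO. For the same difference it was weaker in Il4-/-KO, at 0.25, and in Il4-/-, at 0.29. Over all annotated genes these values were -0.27 for WT, 0.47 for KO, 0.30 for Il4-/-KO and 0.14 for Il4-/-. Between libraries of the same RNA, repeat minus first, it was 0.72 in RNA 2 and 0.29 in RNA 1 over the members. Over all annotated genes it was 0.39 in RNA 2 and 0.08 in RNA 1. With trends on both length and GC content removed, 23 members were higher in KO against WT with a median of 0.07, and 30 were higher in Il4-/-KO against KO with a median of 0.27.

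Other chromatin genes, mostly partners of the members in their complexes, were taken from 11 lists with 159 genes, of which 149 were tested. Their fold changes centred near 0, with 64 of 149 higher in KO against WT (median -0.07), 81 in Il4-/-KO against Il4-/- (0.03), 88 in Il4-/-KO against KO (0.11) and 69 in Il4-/- against WT (-0.06). None passed an adjusted p of 0.05 in limma in these comparisons. At an unadjusted p under 0.05 in limma, 9 of the 149 were higher and 18 lower in KO against WT (5.19% and 6.9% of all genes). In Il4-/-KO against Il4-/- 2 were higher and 1 lower (1.3% and 1.96% of all genes). In Il4-/-KO against KO 24 were higher and 3 lower (8.53% and 3.13%), and in Il4-/- against WT 12 and 6 (2.63% and 1.46%). The 27 of them in the longest 10% of transcripts had a median of -0.58 in KO against WT, with 24 lower, and of 0.84 in Il4-/-KO against KO, with 22 higher. The 121 shorter ones had medians of -0.02 and 0.05. Over all 1422 genes of the longest 10% the medians were -0.54 and 0.70, and over the 32 members of that class -0.47 and 1.07.

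Among partners of PRC2, Mtf2 was lowest in KO against WT at -1.39, with 941 and 342 normalised counts in KO and 887 and 2505 in WT, and Suz12, a core PRC2 subunit, was highest in Il4-/-KO against KO at 1.43. Psip1, a tether of MLL complexes, stood at -1.55 in KO against WT and Hcfc1, a COMPASS subunit, at 0.89. Rsf1, the partner of Smarca5 in the RSF remodeller, was highest of its list in Il4-/-KO against KO at 2.42. Mta1, a NuRD subunit, was lower in Il4-/-KO, at 502 and 336, than in KO, at 1176 and 1016. Smarcd2, a SWI/SNF subunit, had 4828 and 5826 in Il4-/-KO and 7348 and 8782 in KO. Among further enzymes, Kdm4c, a demethylase of H3K9, had 484 and 286 in KO and 1097 and 1942 in WT, and Kat6a, an acetyltransferase, had 3012 and 2799 in Il4-/- and 403 and 1065 in WT. Uhrf1, which guides Dnmt1 to replicated DNA, had 2170 and 2069 in KO and 647 and 1279 in WT.

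Ezh2 and Dnmt1 were the most positive members in Il4-/-KO against Il4-/- cells. In that comparison 20 of 20 cell cycle genes were higher (47.6% of all genes), with a median log2 fold change of 0.83. None of the 20 passed an adjusted p of 0.05 in limma. At an unadjusted p under 0.05 in limma, 9 were higher (1.3% of all genes). In the same comparison 10 of 10 macrophage markers were lower (52.2% of all genes) and 10 of 11 T cell markers higher. Il4-/- replicate 2 stood apart from Il4-/- replicate 1: its macrophage sum was 73906 against 6843 and its T cell sum 117961 against 193228. Its cell cycle sum was 30130 against 45283. Without Il4-/- replicate 2, where Ezh2 and Dnmt1 were nearer 0 as given above, 19 of 20 cell cycle genes were higher with a median of 0.57, and 5 of 10 macrophage and 5 of 11 T cell markers were higher. The part of cell composition in the values of Ezh2 and Dnmt1 was not tested further. In KO against WT, 16 of the 20 cell cycle genes were higher (46.7% of all genes) with a median of 0.35. Ezh2 stood at -0.88 there and Dnmt1 at -0.13. Over the 8 replicates the genes most like Ezh2 were Larp7 (Pearson's r = 0.99), Mapre1, Sp100, Hace1 and Ywhab (0.98 each). Those most like Dnmt1 were Smap1 (0.97), Bin2 and Arhgap30 (0.95 each), and Ccnd2 and Letm2 (0.94 each). Ezh2 and Dnmt1 correlated at 0.80 with each other. With Mki67, a marker of proliferating cells, Ezh2 correlated at 0.75 and Dnmt1 at 0.82, and with Uhrf1, which is also linked to DNA replication, Ezh2 correlated at 0.16 and Dnmt1 at 0.54. The 5 most similar genes were chosen as the highest of 14473, and all these values are a description over 8 replicates that share their differences in composition.

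RefSeq promoter windows (GRCm38.p6, 250 bases before to 50 after a start) were matched by symbol to 30 members with 37 windows. The windows were searched on both strands for the E2F-type letters TTTCCCGC, TTTGGCGC, TTTCGCGC and TTTGCCGC, which are known from genes induced at the start of DNA replication. At least 1 of them was in 3 of 37 member windows (8.11%), of Ezh2, Dnmt1 and Arid1a, and in 744 of 32851 windows overall (2.26%). All 4 motifs contain CG, and the member windows held a median of 32 CG pairs, against 7 over all windows, so the overall share is not a like-for-like background. A match is a stretch of letters, not a shown binding site. Further Dnmt1 windows, at chr9:20952930-20953229 and chr9:20959839-20960138, held no match. Arid1a was lower in Il4-/-KO than in Il4-/- cells, at -0.42 in log2 fold change. Smarca5, the next most positive member there after Ezh2 and Dnmt1 at 0.20, had no match. The windows of Ezh2 (chr6:47594981-47595280, minus strand) and Dnmt1 (chr9:20952574-20952873, minus strand) are shown with the matched letters in capitals. They were picked because Ezh2 and Dnmt1 were the most positive members in that comparison.
Ezh2: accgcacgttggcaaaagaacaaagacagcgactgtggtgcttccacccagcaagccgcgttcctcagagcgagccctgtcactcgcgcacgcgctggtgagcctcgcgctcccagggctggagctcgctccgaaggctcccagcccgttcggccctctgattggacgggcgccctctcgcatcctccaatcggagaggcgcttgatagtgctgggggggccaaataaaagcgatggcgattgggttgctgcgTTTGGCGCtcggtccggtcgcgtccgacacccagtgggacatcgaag
Dnmt1: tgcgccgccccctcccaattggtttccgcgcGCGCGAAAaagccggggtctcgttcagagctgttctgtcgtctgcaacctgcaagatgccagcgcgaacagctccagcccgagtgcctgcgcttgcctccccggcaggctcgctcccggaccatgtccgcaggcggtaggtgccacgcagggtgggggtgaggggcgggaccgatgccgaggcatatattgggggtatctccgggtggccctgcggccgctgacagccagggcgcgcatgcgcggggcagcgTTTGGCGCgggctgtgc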

How the data were processed

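RNA was amplified with SMART-Seq v4 and libraries were prepared with KAPA Hyper Prep, per the labels' protocols, without molecular identifiers. Per the submitters' processing notes, bcl2fastq 2.18.0, STAR and DESeq2 were used with build mm10; the read counter, its annotation, filters and use of strand are not given in the sources used here. The deposited signal is a normalised count, which the authors made by dividing read counts by a size factor per library. Within 0.001 reads, 100% of the values came out as whole reads once divided by the library's step, which recovered 17121030 to 33802781 reads per library, with 1 read worth 0.644 to 1.47 normalised counts. A value of 0 allows up to 3 reads, or 1.93 to 4.41 normalised counts, which covers counting error only. The table's 7 rows without a name, at most 0.0205% of a library, were left out.

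From these values, limma 3.58.1 in R 4.3.3 was fitted with a mean-variance trend on log2(normalised count + 1), a scale that understates changes of low genes, over 14473 genes and all 4 genotypes, two-sided, with Benjamini-Hochberg adjustment over all genes and 4 residual degrees of freedom. The KO libraries of an RNA were averaged and counted as 1 replicate. Alternatives were a pseudocount of 5, no filter, quantile normalization, TMM rescaling, a replicate block, the genotypes compared alone, first or repeat KO libraries alone, a transcript length trend (loess) removed, each replicate left out, and the edgeR 4.0.16 quasi-likelihood and DESeq2 1.42.0 Wald tests on the recovered reads. A length and GC trend removed, a term for the depth set and leaving out the repeat library of KO replicate 2 were chosen after seeing the data. Same-numbered replicates did not deviate together (correlations from -0.36 to 0.24), so the numbers were not taken as pairs. Lengths, GC content and positions came from GENCODE vM21 (17000 of 17363 named genes matched) and promoters from RefSeq. The procedure was tested on simulated data.

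The members and the lists of partners, cell cycle genes and cell type markers were chosen with earlier results of these data known. Named genes were the highest and lowest member of each role in each comparison, with library values for the 3 largest differences each way, Tgfbr2 and Il4, the extremes of the partner lists, and the 5 genes most like Ezh2 and Dnmt1. Members discussed for their repeat libraries or cell composition, such as Ep300 or Chd3, were chosen after their values were seen.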

Additional observations from a re-analysis of the deposited data

Results flagged for a closer look

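Srcap, Setd1b and Ep400, a remodeller of the TIP60 complex, moved apart between the Il4 backgrounds: with the libraries of a KO RNA averaged, every replicate of KO was above every replicate of WT, and every replicate of Il4-/-KO was below every replicate of Il4-/-. The interaction was -1.90 ± 0.43 for Srcap, -1.42 ± 0.78 for Setd1b and -0.92 ± 0.57 for Ep400 on the log2 scale (SE; limma adjusted p = 0.988 each), so none of them passed the test of the difference itself. With the first KO libraries alone the interaction was -0.82 for Srcap and -0.51 for Setd1b. Over all genes tested, 536 (3.7%) moved apart in the same sense. In Srcap and Setd1b the highest KO values were those of the repeat libraries, as given in the report. Ep400 had 3359 and 3934 normalised counts in the KO repeats and 1830 and 1401 in the first KO libraries, against 1076 and 2506 in WT, and 3693 and 3701 in Il4-/-KO, against 4756 and 4025 in Il4-/-. Its first KO libraries lay between the WT replicates, and with these alone its log2 fold change in KO against WT was -0.036.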

How the results depend on the processing

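In KO against WT, the genes called of all tested were 2 with quantile normalization, 2 with a term for the depth set, 527 with DESeq2, and 0 with edgeR, the repeat KO libraries alone, the genotypes compared alone or the replicate block, which changed no other call. Members higher in KO were 3 with the first KO libraries alone or the depth term, and 7 without the repeat library of KO replicate 2. In this comparison the depth term gave every member the same fold change as the first KO libraries alone, so it is no separate check. With the length trend removed 22 members were higher, and with the length and GC trend removed 23 (medians 0.063 and 0.075). DESeq2 called 3 members. In Il4-/-KO against Il4-/-, all genes called were 1 with quantile normalization and 51 with DESeq2, and the trend removals gave medians of 0.12 and 0.15 with 27 and 30 members higher. In Il4-/-KO against KO, the median was 1.37 with the first KO libraries, 0.14 (24 members higher) with the length trend removed and 0.27 with both trends removed, and DESeq2 called 4 members and 393 genes. In Il4-/- against WT, the median was 0.17 and 0.16 with the trends removed and 0.19 with the depth term, and DESeq2 called 2 members and 31 genes. For the interaction, DESeq2 called 1 member and 35 genes.

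Leaving out each replicate in turn gave medians of -0.94 to -0.031 with 6 to 20 members higher and 0 genes called (KO against WT), -0.52 to -0.11 with 5 to 14 (Il4-/-KO against Il4-/-), 0.82 to 1.04 with 35 to 40 (Il4-/-KO against KO), 0.25 to 1.38 with 28 to 42 (Il4-/- against WT) and -0.26 to 0.69 with 14 to 31 (interaction). The lone replicate was then assumed to vary like the other groups. Single members turned sign in several fits, and not every case is listed here. In KO against WT, most members that were higher turned lower with the first KO libraries or the depth term. These were Srcap (-0.0046), Ep400 (-0.036), Chd7 (-0.015), Chd8 (-0.48), Smarca4 (-0.29), Smarcc2 (-0.33), Kmt2a (-0.69), Kmt2b (-0.11), Kmt2d (-0.11) and Tet3 (-0.61). In Il4-/-KO against KO, Setd1a (0.11) and Kmt2b (0.27) turned with the first KO libraries, and Srcap (-0.14) with the repeats alone or the depth term. Kmt2b turned there also without the repeat library of KO replicate 2 (0.10), KO replicate 2 (0.25) or Il4-/-KO replicate 2 (0.086). In Il4-/- against WT, Smarca5 turned with quantile normalization (0.021), the depth term (0.079) or without Il4-/- replicate 2 (0.046) or WT replicate 2 (0.89). Ino80 turned with the depth term (0.43) or without WT replicate 2 (0.11), and Ezh2 without WT replicate 2 (0.27). Leaving out each replicate in turn, Kmt2b ran from -0.77 to 0.25 in Il4-/-KO against KO. In Il4-/- against WT the ranges were -1.002 to 0.89 (Smarca5), -0.57 to 0.11 (Ino80) and -0.999 to 0.27 (Ezh2). The cause was not tested. The interaction needs all 4 genotypes, so no fit on fewer was made. The other alternatives left the direction of each median and the member counts within 1.5 times. With 2 replicates a genotype, only large differences can pass, and the members' lowest adjusted p in limma was 0.321.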
